A study of Mus musculus with 6 samples.

Results

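Complex I (NADH:ubiquinone oxidoreductase) is the entry point of electrons from NADH into the mitochondrial respiratory chain. Its nuclear genes were followed in RNA from mouse skeletal muscle stem cells, the satellite cells that rebuild muscle fibres. Genes were taken by symbol: names that begin with Nduf, then a, b, c, s or v and a digit, or with Ndufaf and a digit. This found 47 rows of the 12067 in the authors' table, with 46 symbols, since Ndufa13 fills 2 rows. Limb muscles of C57BL/6 males gave the cells, which had been sorted for VCAM and against CD45, CD31 and Sca1. A second sort used ThiolTracker Violet (5 uM), which stains reduced glutathione (GSH). The young group (4 months, 1 animal per library) kept all cells, nearly all of them GSH-high per the labels. The old group (23 months, 2 pooled animals per library) was divided by the stain into a GSH-high and a GSH-low fraction, and each of the 3 groups has 2 libraries. All groups share strain, sex and the gate on surface markers, but the young cells were not divided by the stain. The labels do not say whether the old fractions came from the same animals.

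Complex I is an L-shaped assembly of a hydrophilic arm, which takes electrons from NADH and passes them through iron-sulfur clusters to ubiquinone, and a membrane arm, which pumps protons. A small set of conserved core subunits carries the chemistry, and accessory subunits surround them. Assembly factors help to build the complex and are not part of the finished enzyme. Quiescent satellite cells are known for few mitochondria and low respiration, and both increase when the cells are activated.

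Levels are in RPKM, the reads of a gene scaled by its exonic length and by the size of the library. Reads recovered from the table totalled 60.05 to 63.11 M in young, 60.76 to 68.79 M in old GSH-high and 47.0 to 50.71 M in old GSH-low libraries. All 13 satellite cell markers checked had reads in all 6 libraries, and Pax7, which defines these cells, averaged 7.79 ± 0.204 RPKM (SD, n = 2) in young, 8.37 ± 0.397 in old GSH-high and 11.9 ± 1.03 in old GSH-low cells. Of the 13 markers 1 rose and 3 fell in old GSH-high (Calcr to 0.443 of its young mean), where 15.1% and 13.7% of all genes did. In old GSH-low cells 3 of the markers rose and 5 fell, where 18.1% and 18.7% of all genes did. The 13 markers summed to 3300.4 to 3509.2 RPKM in young, 3117.9 to 3309.2 in old GSH-high and 2674.5 to 2840.2 in old GSH-low libraries. Markers of other cells also differed between the groups. The 10 tendon cell markers summed to 36.2 to 38.5 RPKM in young, 642.5 to 812.5 in old GSH-high and 2678.6 to 3068.8 in old GSH-low libraries. The 17 endothelial markers summed to 72.3 to 93.5, 190.5 to 190.6 and 45.1 to 51.7 RPKM in the same order. Sums were 9.85 to 11.5, 44.0 to 56.4 and 52.7 to 59.4 RPKM for macrophage markers (7 of 10 in the file), 489.5 to 565.4, 542.6 to 594.5 and 967.1 to 1053.5 for the 10 fibro-adipogenic markers, and 1.01 to 1.03, 1.97 to 2.20 and 13.4 to 16.2 for lymphocyte markers (5 of 7). Myofibre markers (10 of 12 in the file) summed to 26.3 to 27.0, 23.1 to 23.8 and 51.2 to 53.9 RPKM in the same order. The part of other cells in the results was not tested, and in such bulk samples fewer cells of a type and less RNA per cell cannot be told apart. Gene positions are from GENCODE M21 on GRCm38.

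Most complex I genes were lower in old than in young cells, with fitted changes below 0 in 44 of the 46 rows tested in each GSH fraction. Summed over the 47 rows, the level was 1354.9 and 1070.9 RPKM in the young libraries, 843.6 and 861.1 in old GSH-high and 775.7 and 906.1 in old GSH-low. Every old sum lay below both young sums. Sums over all genes tested had the same order: 295899.2 and 275446.1 RPKM in young, 264244.6 and 261886.0 in old GSH-high, 262749.0 and 264749.8 in old GSH-low. In old GSH-high cells 22 of the 46 rows fell and 1 rose against young, where 13.7% of all 10609 genes tested fell and 15.1% rose. In old GSH-low cells 32 fell and 1 rose, where 18.7% of all genes fell and 18.1% rose. Both comparisons read the same young libraries.

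The median log2 fold change of the 46 rows was -0.39 in old GSH-high and -0.48 in old GSH-low cells, while the median over all genes tested was -0.00 and -0.02. These fold changes are on the log2(RPKM + 1) scale, which shrinks the changes of low genes. A change was called at an adjusted p under 0.05 in limma. Genes that fell kept 0.546 to 0.703 of their young mean RPKM in old GSH-high cells and 0.553 to 0.798 in old GSH-low cells. In 38 of the 47 rows all 4 old libraries lay below both young libraries, and this held for 26.5% of all genes tested.

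**Figure D1:**
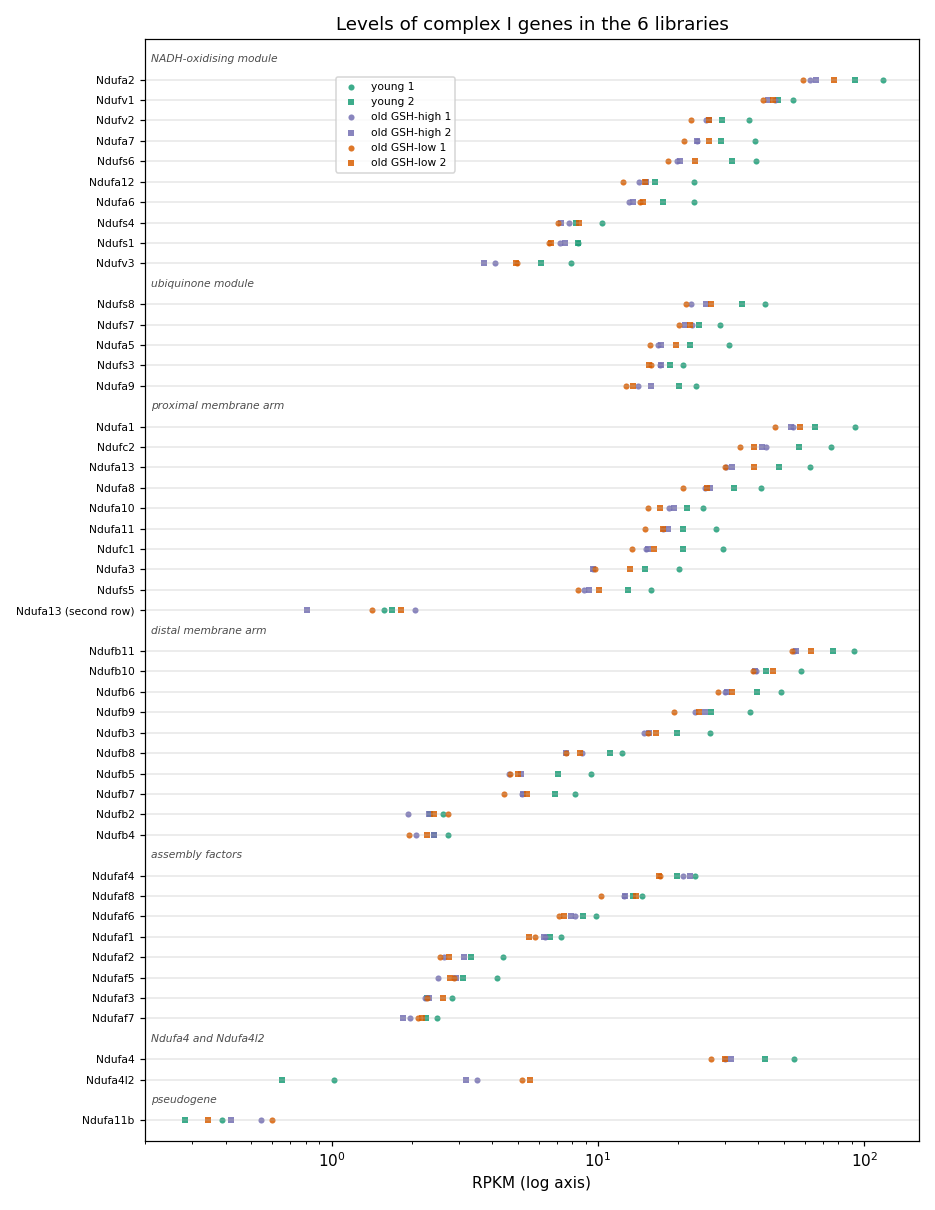
RPKM of 46 of the 47 rows in each library, on a log axis, grouped by place in the complex and ordered by mean level; symbols mark the 6 libraries. In most rows both young libraries lie to the right of all 4 old ones, and Ndufa4l2 shows the opposite order.

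The young libraries differed from each other. Young replicate 1 was above young replicate 2 in 45 of the 47 rows, against 54.1% of all genes tested; Ndufs1 and the second Ndufa13 row were the exceptions. Without young replicate 1 the medians were -0.20 in old GSH-high and -0.29 in old GSH-low cells, with 17 and 19 falls. Without young replicate 2 the medians were -0.58 and -0.60, with 34 and 39 falls. Without old GSH-high replicate 1 the median was -0.40 in old GSH-high cells, and without old GSH-low replicate 1 it was -0.38 in old GSH-low cells. In these fits fewer members fell than with all libraries, and so did fewer of all genes tested. The number of falls over all genes was also lower without young replicate 1 and higher without young replicate 2. Whichever library was left out, 8 of the 22 and 7 of the 32 falls held, and 4 of these (Ndufa4, Ndufc2, Ndufs5 and Ndufs6) held in both age comparisons, as did the rise of Ndufa4l2.

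The NADH-oxidising module at the tip of the hydrophilic arm holds the flavin and the first iron-sulfur clusters. Of its 10 genes 5 fell in old GSH-high and 8 in old GSH-low cells, where 13.7% and 18.7% of all genes did. The module's medians were -0.43 in both. Ndufs6 (an accessory subunit that binds zinc; chromosome 13, 73319838 to 73328542, minus strand) had 39.4 and 31.8 RPKM in young, 19.9 and 20.4 in old GSH-high and 18.4 and 23.1 in old GSH-low libraries. The young and old values did not overlap. Its log2 fold change against young was -0.78 ± 0.13 (SE; adjusted p = 0.00269) in old GSH-high and -0.75 ± 0.13 (adjusted p = 0.00249) in old GSH-low cells.

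Ndufv3, an accessory subunit bound to the flavin-bearing end, had 7.92 and 6.11 RPKM in young, 4.11 and 3.75 in old GSH-high and 4.99 and 4.93 in old GSH-low libraries. It fell by 0.69 ± 0.12 (SE; adjusted p = 0.00292) and by 0.42 ± 0.12 (adjusted p = 0.0231). The old fractions did not overlap, with GSH-low above GSH-high, but their difference of 0.28 ± 0.12 did not pass the test (adjusted p = 0.248). Ndufa2, an accessory subunit with a thioredoxin-like fold, was the most abundant of all members per length, with 117.9 and 92.7 RPKM in young libraries and 59.1 to 77.1 in old ones. It fell by 0.70 ± 0.15 and 0.62 ± 0.15, and its gene span overlaps that of Tmco6.

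Of the remaining accessory subunits of the module 3 had both young libraries above all old ones, as did 26.5% of all genes tested. Ndufa6, which docks the acyl carrier subunit, had 22.9 and 17.5 RPKM in young, 13.1 and 13.5 in old GSH-high and 14.4 and 14.8 in old GSH-low libraries, and fell by 0.55 ± 0.12 and 0.43 ± 0.12. Ndufa7 had 38.9 and 29.0 RPKM in young and 21.1 to 26.1 in old libraries, and fell by 0.49 ± 0.14 and 0.50 ± 0.14. Ndufa12 had 23.0 and 16.4 RPKM in young and 12.4 to 15.1 in old libraries; its change of -0.38 ± 0.15 in old GSH-high did not pass (adjusted p = 0.0934), and it fell by 0.47 ± 0.15 in old GSH-low (adjusted p = 0.0371). Ndufs4, whose loss causes a Leigh-like disease in mice, was the exception: its old GSH-low values of 7.10 and 8.51 RPKM overlapped the young ones of 10.4 and 8.29, and it passed in neither comparison.

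This module also holds 3 core subunits. Ndufv1, which binds NADH and the flavin, had 54.1 and 47.5 RPKM in young, 46.2 and 43.6 in old GSH-high and 41.6 and 45.3 in old GSH-low libraries. All old values were below the young ones, yet the changes of -0.17 ± 0.09 and -0.22 ± 0.09 did not pass (adjusted p = 0.205 and 0.102); the latter did once a trend over length and GC was removed (0.0294). Ndufs1, the largest subunit and carrier of several iron-sulfur clusters, had 8.41 and 8.42 RPKM in young, 7.20 and 7.50 in old GSH-high and 6.57 and 6.66 in old GSH-low libraries. Its change was -0.17 ± 0.08 (adjusted p = 0.146) in old GSH-high cells, and it fell by 0.31 ± 0.08 (adjusted p = 0.0190) in old GSH-low cells. The difference between the fractions was -0.13 ± 0.08 (adjusted p = 0.423). Ndufv2, which carries a cluster beside the flavin, had -0.33 ± 0.12 (adjusted p = 0.0685; 0.0176 once a trend over length and GC was removed) in old GSH-high and fell by 0.43 ± 0.12 (adjusted p = 0.0235) in old GSH-low cells.

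The ubiquinone module links the hydrophilic arm to the membrane. Of its 6 genes 3 fell in old GSH-high and 4 in old GSH-low cells, where 13.7% and 18.7% of all genes did. The module's medians were -0.37 and -0.43. Ndufs8, a core subunit with a pair of iron-sulfur clusters, had 42.5 and 34.8 RPKM in young, 22.3 and 25.4 in old GSH-high and 21.5 and 26.5 in old GSH-low libraries. It was the core subunit with the largest fall, by 0.67 ± 0.13 (SE) in each fraction (adjusted p = 0.00594 and 0.00474), and its old values overlapped each other but not the young ones.

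Ndufa9, an accessory subunit that binds a nicotinamide nucleotide, had 23.3 and 20.1 RPKM in young, 14.2 and 15.9 in old GSH-high and 12.8 and 13.5 in old GSH-low libraries. It fell by 0.49 ± 0.10 (adjusted p = 0.00676) and 0.68 ± 0.10 (adjusted p = 0.00102), the latter the smallest p of all falls in old GSH-low cells. Ndufa5, another accessory subunit of the module, had 31.1 and 22.1 RPKM in young and 15.7 to 19.6 in old libraries, and fell by 0.60 ± 0.16 and 0.55 ± 0.16. Ndufs3 fell in old GSH-low cells (-0.31 ± 0.09, adjusted p = 0.0224) and had -0.19 ± 0.09 in old GSH-high; the fall held in 1 of the 6 fits that left out a library. Ndufs7, which lines the ubiquinone site, had 28.8 and 24.0 RPKM in young and 20.1 to 22.5 in old libraries, and did not pass (adjusted p = 0.102 and 0.0505), but did in old GSH-low cells once a trend over length and GC was removed (0.00638). Of the 7 core subunits together, 1 fell in old GSH-high cells, near the 13.7% of all genes, and 4 in old GSH-low cells (18.7% of all genes), with medians of -0.23 and -0.31. Of the 29 rows of accessory subunits 20 and 24 fell, with medians of -0.52 and -0.53. The difference between core and accessory genes was not tested.

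**Figure D2:**
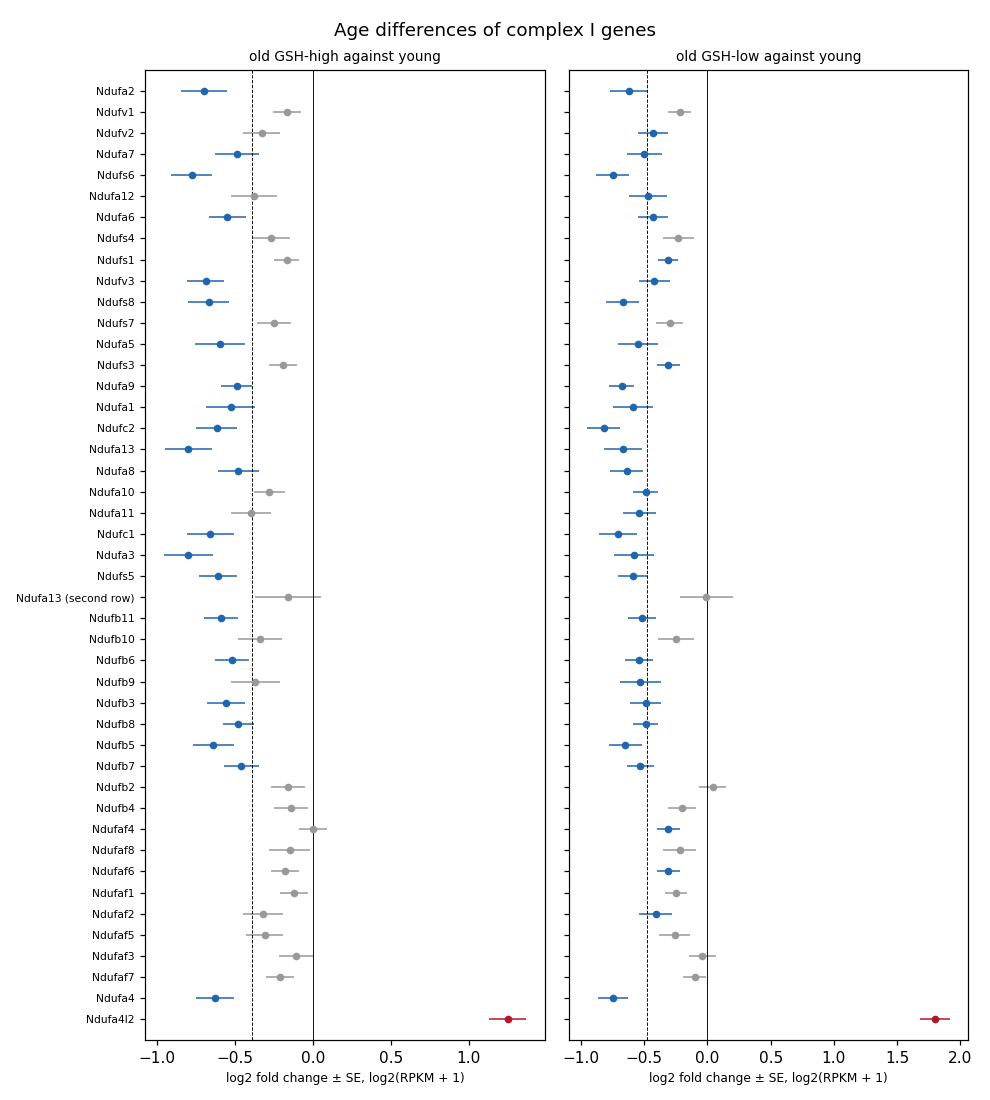
Fitted log2 fold change against young of 45 of the 46 rows tested (points, with bars of 1 SE), in old GSH-high cells on the left and old GSH-low cells on the right; blue fell, red rose and grey did not pass. The dashed line is the median over the 46 rows, -0.39 and -0.48.

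The proximal membrane arm lies next to the ubiquinone site. It had the lowest medians of the modules, -0.57 and -0.59. Of its 10 rows 7 and 9 fell, where 13.7% and 18.7% of all genes did. Ndufc2 (a small membrane subunit; chromosome 7, 97400003 to 97407802, plus strand) had 75.1 and 56.7 RPKM in young, 42.7 and 41.3 in old GSH-high and 34.3 and 38.7 in old GSH-low libraries. The groups did not overlap at all. It fell by 0.62 ± 0.13 (SE; adjusted p = 0.00777) and by 0.82 ± 0.13 (adjusted p = 0.00149), the lowest fitted change in old GSH-low cells. Ndufs5, which sits on the intermembrane face, had 15.9 and 13.0 RPKM in young and 8.43 to 10.1 in old libraries, and fell by 0.61 ± 0.12 and 0.59 ± 0.12.

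Ndufa13, also known as GRIM-19, had 62.8 and 48.0 RPKM in young, 30.3 and 31.8 in old GSH-high and 30.1 and 38.7 in old GSH-low libraries. It had the lowest fitted change in old GSH-high cells, -0.80 ± 0.15 (adjusted p = 0.00433), beside -0.67 ± 0.15 in old GSH-low. Its gene span overlaps Tssk6 and Yjefn3. Ndufa3, a short membrane subunit whose span overlaps Tfpt, had 20.1 and 15.0 RPKM in young, 9.57 and 9.60 in old GSH-high and 9.72 and 13.2 in old GSH-low libraries. Its changes were -0.80 ± 0.16 and -0.58 ± 0.16. Ndufa1, an X-linked subunit needed for assembly, had 92.0 and 65.6 RPKM in young and 46.2 to 57.2 in old libraries, and fell by 0.53 ± 0.16 and 0.59 ± 0.16.

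Ndufc1, a small membrane subunit, had 29.4 and 20.9 RPKM in young and 13.4 to 16.3 in old libraries, and fell by 0.66 ± 0.15 and 0.71 ± 0.15. Ndufa8, on the intermembrane face, had 40.9 and 32.4 RPKM in young and 20.8 to 26.4 in old libraries, and fell by 0.48 ± 0.13 and 0.64 ± 0.13. In these genes the old fractions overlapped and the young libraries stood above them. Ndufa10 and Ndufa11 fell in old GSH-low cells by 0.49 ± 0.10 and 0.54 ± 0.13, and had -0.28 ± 0.10 and -0.40 ± 0.13 in old GSH-high, which missed the test (adjusted p = 0.0600 and 0.0527). Ndufa10 had 24.9 and 21.7 RPKM in young and 15.4 to 19.4 in old libraries, and Ndufa11 had 27.7 and 20.8 against 15.0 to 18.3. The strand of the libraries is not given in the sources used here, and 21 members overlap another gene, where reads of either cannot be told apart.

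The distal membrane arm ends in the proton-pumping tip. Of its 10 genes 6 fell in old GSH-high and 7 in old GSH-low cells, where 13.7% and 18.7% of all genes did. The arm's medians were -0.47 and -0.50. Ndufb11, the other X-linked member, had 91.5 and 76.2 RPKM in young, 54.3 and 55.6 in old GSH-high and 53.4 and 62.9 in old GSH-low libraries. Its changes were -0.59 ± 0.11 (SE; adjusted p = 0.00526) and -0.52 ± 0.11 (adjusted p = 0.00780). Ndufb5 had 9.40 and 7.07 RPKM in young and 4.64 to 5.14 in old libraries, and fell by 0.64 ± 0.13 and 0.65 ± 0.13. Ndufb6 had 48.9 and 39.7 RPKM in young and 28.3 to 31.9 in old libraries, and fell by 0.52 ± 0.11 and 0.54 ± 0.11.

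Ndufb3, Ndufb7 and Ndufb8 also fell in both fractions, with changes from -0.56 to -0.46 in old GSH-high and from -0.53 to -0.49 in old GSH-low cells. Ndufb3 had 26.3 and 19.8 RPKM in young and 14.9 to 16.6 in old libraries. Ndufb7 had 8.23 and 6.91 against 4.45 to 5.41 RPKM, and Ndufb8 had 12.3 and 11.1 against 7.57 to 8.70. In none of these 3 genes did young and old values overlap, and 26.5% of all genes tested had all old values below the young ones. Ndufb9 had 37.4 and 26.6 RPKM in young and 19.4 to 25.2 in old libraries, and fell by 0.53 ± 0.16 in old GSH-low (adjusted p = 0.0286; old GSH-high -0.37 ± 0.16, adjusted p = 0.107). The genes of this arm that passed in neither comparison were Ndufb2, Ndufb4 and Ndufb10. Ndufb10 had 57.9 and 42.8 RPKM in young and 38.2 to 45.4 in old libraries, so that its groups overlapped. Ndufb2 was the only subunit with a fitted value above 0 in old GSH-low cells (0.04 ± 0.11), apart from Ndufa4l2. Its low level of 1.93 to 2.73 RPKM came from 657 to 898 reads over a gene model of 5628 exonic bases. Ndufb4 had 2.74 and 2.43 RPKM in young and 1.96 to 2.42 in old libraries.

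None of the 8 assembly factors passed in old GSH-high cells by limma; Ndufaf2 and Ndufaf5 had an unadjusted p under 0.05 (0.0301 and 0.0347), and limma-voom on the recovered reads gave them adjusted p-values of 0.0827 and 0.130 and called none of the 8. Ndufaf5 did pass once a trend over length and GC was removed (0.0365), and without young replicate 2 both passed (Ndufaf2 0.0168, Ndufaf5 0.0152). In old GSH-low cells 3 of the 8 fell, where 18.7% of all genes did. The medians of the 8 were -0.17 and -0.26. Ndufaf2, a paralog of Ndufa12 that acts late in assembly, had 4.42 and 3.35 RPKM in young, 2.65 and 3.13 in old GSH-high and 2.56 and 2.76 in old GSH-low libraries, and fell by 0.41 ± 0.13 in old GSH-low (adjusted p = 0.0322). That fall was lost with a block for replicate number (0.0522), with library size as the only scaling (0.0539), and without young replicate 1 (0.147), old GSH-low replicate 1 (0.155) or old GSH-low replicate 2 (0.0801). Ndufaf6, an early factor for the membrane part, had 9.83 and 8.78 RPKM in young, 8.18 and 7.93 in old GSH-high and 7.14 and 7.43 in old GSH-low libraries, and fell by 0.31 ± 0.09 (adjusted p = 0.0250), which held in 1 of the 6 fits that left out a library and ended with limma-voom (0.0885).

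Ndufaf4, which works with Ndufaf3 on the ubiquinone module, had 23.2 and 19.9 RPKM in young, 20.9 and 22.1 in old GSH-high and 17.1 and 17.0 in old GSH-low libraries. Young and old GSH-high values overlapped (0.00 ± 0.09, adjusted p = 0.997), and both old GSH-low values lay below the other 4. It fell in old GSH-low against young (-0.31 ± 0.09, adjusted p = 0.0301), while the direct difference from old GSH-high, -0.31 ± 0.09, missed the test (adjusted p = 0.110). That difference passed in the 4 old libraries alone (adjusted p = 0.0350) and without either young library (0.0340 and 0.0337). The fall against young ended without any 1 library other than young replicate 2 (0.0576 to 0.127), with the replicate number as a block (0.0571) and with library size as the only scaling (0.0674).

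The other factors did not pass in either fraction, apart from the alternatives for Ndufaf5 above and, in old GSH-low, without young replicate 2 (adjusted p = 0.0195). Ndufaf1, part of the intermediate assembly complex, had 6.63 to 7.27 RPKM in young and 5.51 to 6.33 in old libraries. Ndufaf5 and Ndufaf8, partners in modifying Ndufs7, had 3.11 to 4.17 and 13.5 to 14.7 RPKM in young against 2.51 to 2.93 and 10.3 to 13.9 in old. Ndufaf7, a methyltransferase, had 2.27 to 2.49 against 1.86 to 2.18 RPKM. Ndufaf3 had 2.28 to 2.84 against 2.24 to 2.62 RPKM, with overlapping groups.

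**Figure D3:**
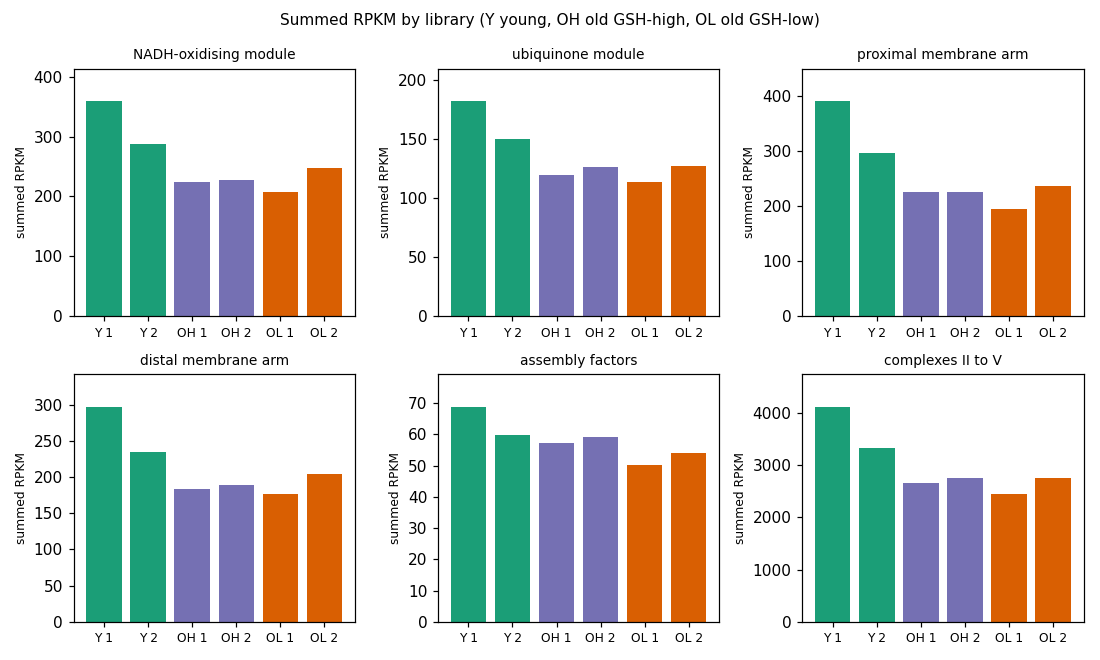
Summed RPKM of each module, of the assembly factors and of the nuclear genes of complexes II to V in each library (bars, from 0; Y young, OH old GSH-high, OL old GSH-low). Both young bars exceed all old bars in each panel, an order also seen in sums over all genes tested. The second young bar of the assembly factors (59.8) is close to the second old GSH-high bar (59.1).

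Ndufa4 and its paralog Ndufa4l2 match the naming rule although the Ndufa4 protein is now placed in complex IV, and they moved in opposite directions. Ndufa4 (chromosome 6, 11900292 to 11907497, minus strand) had 54.6 and 42.5 RPKM in young libraries and from 26.7 to 31.5 in old ones, with means of 30.7 ± 1.06 (SD, n = 2) in old GSH-high and 28.4 ± 2.35 in old GSH-low cells. Young and old values did not overlap, and the old fractions did not differ beyond their spread (-0.11 ± 0.12 SE, adjusted p = 0.681). It fell by 0.63 ± 0.12 (SE; adjusted p = 0.00535) and 0.75 ± 0.12 (adjusted p = 0.00185). Ndufa4l2 (chromosome 10, 127514967 to 127517154, plus strand), a gene known to be induced by hypoxia and to be expressed in pericytes, had 1.02 and 0.653 RPKM in young, 3.52 and 3.19 in old GSH-high and 5.19 and 5.54 in old GSH-low libraries. The 3 groups did not overlap, from 42 to 68 reads in young up to 292 in each old GSH-low library.

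Ndufa4l2 was the member that rose with age. Its mean RPKM was 4.01-fold higher in old GSH-high and 6.41-fold higher in old GSH-low than in young cells. The log2 fold changes were 1.25 ± 0.12 (adjusted p = 0.000121) and 1.80 ± 0.12 (adjusted p = 1.04e-05), and limma-voom, which adds no 1 RPKM, gave 2.03 and 2.70. Markers of pericytes and smooth muscle did not all go the same way. Of 12 listed 11 were in the file, none at 0 reads, and their summed RPKM was 949.7 to 961.0 in young, 695.7 to 715.3 in old GSH-high and 652.5 to 679.2 in old GSH-low libraries. Des (desmin, given below) made up most of each sum. The median RPKM of the 11 was 1.31 to 1.95 in young, 4.25 to 4.69 in old GSH-high and 6.44 to 6.52 in old GSH-low libraries. Of the 10 tested 6 rose and 3 fell in old GSH-high (15.1% and 13.7% of all genes). In old GSH-low 5 of these markers rose and 3 fell (18.1% and 18.7% of all genes). Among them Rgs5, a pericyte marker, averaged 3.83 ± 0.196 RPKM (SD, n = 2) in young, 8.16 ± 0.762 in old GSH-high and 14.7 ± 0.898 in old GSH-low cells. Pdgfrb, a receptor also on this list, averaged 1.63 ± 0.449, 5.59 ± 0.871 and 12.8 ± 1.93 RPKM in the same groups. The markers that fell in both fractions were Acta2 (smooth muscle actin; 133.1 ± 10.9, 67.2 ± 14.8 and 63.7 ± 5.09 RPKM), Des (desmin, also made by muscle cells; 756.0 ± 15.1, 549.9 ± 0.882 and 499.3 ± 21.8) and Mcam (8.71 ± 0.730, 4.47 ± 0.311 and 6.48 ± 0.0570). Their part in the Ndufa4l2 result was not tested. The Ndufa4l2 span overlaps Shmt2, a mitochondrial serine enzyme, which averaged 23.6 ± 1.89, 25.3 ± 0.366 and 23.6 ± 0.907 RPKM.

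**Figure D4:**
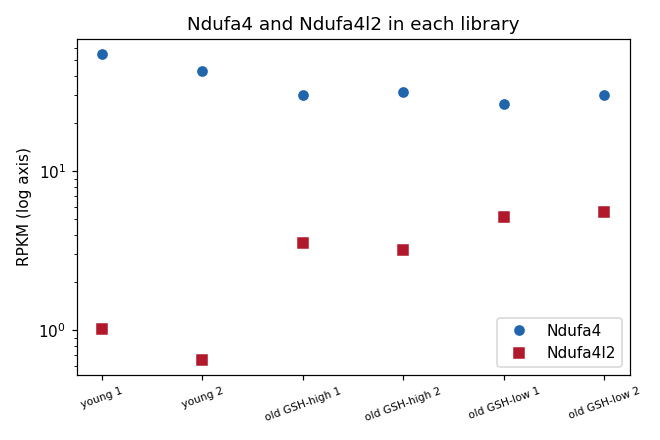
RPKM of Ndufa4 (circles) and Ndufa4l2 (squares) in each library on a log axis. Ndufa4 goes from 42.5 to 54.6 in young to 26.7 to 31.5 in old libraries, and Ndufa4l2 from 0.653 to 1.02 in young to 3.19 to 5.54 in old ones.

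Between the old fractions the median log2 fold change of old GSH-low against old GSH-high was -0.01 over the members and -0.01 over all genes tested, and 41 of the 46 rows lay within 0.2 of 0. The sign of the median turned on 1 library: it was 0.08, with 33 of 46 rows above 0, without old GSH-low replicate 1, and -0.11, with 37 of 46 below 0, without old GSH-low replicate 2. The test called 1 member, where 5.38% of all genes rose or fell, and 3 members had an unadjusted p under 0.05. That member was Ndufa4l2, higher in GSH-low by 0.55 ± 0.12 (SE; adjusted p = 0.0295). Its call ended with a pseudocount of 0.1 (adjusted p = 0.0993), with limma-voom (0.0855) and without any 1 of the 4 old libraries (0.0920 to 0.208). The lowest value was that of Ndufaf4, -0.31. Old GSH-low replicate 2 was above replicate 1 in 40 of the 47 rows, against 50.5% of all genes. The tendon, endothelial and fat markers differed between these same libraries. Fat markers (3 of 7 in the file) summed to 48.2 to 68.9 RPKM in old GSH-high and 1.52 to 2.30 in old GSH-low, beside 0.107 to 0.173 in young.

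Of the complex I genes outside the naming rule 11 were in the file and 9 were tested. In old GSH-high cells 1 rose (15.1% of all genes did), Tmem70 (a membrane protein that also helps to assemble ATP synthase), from 14.1 ± 1.55 to 18.2 ± 0.222 RPKM (SD, n = 2; log2 fold change 0.34, adjusted p = 0.0242). In old GSH-low cells 2 fell (18.7% of all genes did), Dmac1 (an assembly factor of the distal arm; -0.45, adjusted p = 0.0259) and Ecsit (a factor of the intermediate assembly complex; -0.30, adjusted p = 0.0406). These counts are near the shares of all genes, and of the 6 fits that left out a library the calls held in 3 for Tmem70, 4 for Dmac1 and 1 for Ecsit (adjusted p up to 0.125, 0.162 and 0.163). Ndufab1, the acyl carrier subunit, had 3.65 ± 0.619 RPKM in young and 3.14 ± 0.291 and 3.14 ± 0.310 in the old fractions, and did not pass. The mitochondrially encoded subunits were not analysed here. In old GSH-high cells 31 of the 41 nuclear genes of complexes II to V fell, where 13.7% of all genes did. In old GSH-low cells 37 fell, where 18.7% of all genes did, and the medians of the 41 were -0.52 in both. Atp5g2, a subunit of the ATP synthase ring, averaged 13.0 ± 2.66 RPKM (SD, n = 2) in young, 7.91 ± 0.463 in old GSH-high and 6.31 ± 1.12 in old GSH-low cells. Sdha, the flavoprotein of complex II, averaged 53.0 ± 1.09, 52.6 ± 0.176 and 50.4 ± 0.541 RPKM and did not pass. The difference from the complex I members was not tested.

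Of 13 regulators of respiratory genes tested 2 rose in each old fraction, near the 15.1% and 18.1% of all genes that rose, and the other 11 did not pass. Those that rose were Pprc1, a coactivator of the PGC-1 family, from 41.4 ± 1.20 RPKM (SD, n = 2) in young to 56.2 ± 2.42 and 58.2 ± 1.49, and Epas1 (the hypoxia-inducible factor HIF-2 alpha), from 3.19 ± 0.381 to 6.75 ± 0.316 and 5.67 ± 0.935. Epas1 is also expressed in endothelium, whose markers are given above. Gabpa (the DNA-binding subunit of NRF-2, 21.1 ± 3.18, 20.7 ± 0.0533 and 17.7 ± 1.18 RPKM), Nrf1 (7.02 ± 0.480, 8.03 ± 0.221 and 8.35 ± 0.122) and Yy1 (8.20 ± 1.14, 7.33 ± 0.0552 and 8.09 ± 0.232) did not pass.

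Members share short gene models. Their exonic length had a median of 1501 bases, from 419 (Ndufa1) to 8086 (Ndufs1), against 4368 over all genes tested. They lie on 17 chromosomes. Across the 46 tested members the fold change in old GSH-high cells had a Spearman rho of 0.37 with gene length and -0.46 with mean log2 level, and in old GSH-low cells 0.37 and -0.54, so that shorter and more abundant members had lower values. Over 10544 genes the same rho were 0.17 and -0.18, and 0.14 and -0.26. These points share the libraries and are a description. The rho with level is not independent of the log2(RPKM + 1) scale, which shrinks the changes of low genes. The part of the scale in it was not tested. With a smooth trend over length and GC content removed from each library, the medians were -0.35 and -0.44, with 26 and 34 falls.

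Since many members fell together, their promoters were searched for motifs of factors known to act on respiratory genes. RefSeq promoters (GRCm38.p6, 250 bases before to 50 from the start on) were found for 39 of the 46 symbols, 41 promoters in all. On either strand, the YY1 motif AAGATGGCG was in 6 of the 41 (14.6%) and in 1.40% of all 32851 promoters. The NRF1 motif GCGCATGCG (in 3 members its matches on both strands overlap each other) was in 4 (9.76%, against 1.75%), the ETS motif CCGGAAG, which GABP binds, in 6 (14.6%, against 8.86%), and the ERR motif TCAAGGTCA in 0 (against 0.423%). The 32851 promoters were not matched to the members for GC content or level. Members with a YY1 match had medians of -0.38 and -0.49 in the age comparisons, and those without -0.48 and -0.49. With an NRF1 match the medians were -0.36 and -0.43, and without -0.49 and -0.49. With an ETS match they were -0.32 and -0.42, and without -0.48 and -0.49. These differences were not tested.

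The 6 YY1 matches are shown because they all lie on the gene's own strand within the first bases of the transcript, from 10 to 43 bases after the start. The motif contains ATG, the letters of a translation start codon. Whether the matches are the start codons of these genes, which would fix their strand and place, was not tested. Each line gives 27 bases, with the match in capitals, at chr3:51408919-51408945 (minus), chr6:126849101-126849127 (minus), chr10:80249461-80249487 (plus), chr11:120098932-120098958 (plus), chr13:73328435-73328461 (minus) and chr13:114388045-114388071 (minus), in this order.
Ndufc1: agcctgcggaacAAGATGGCGccgtcc
Ndufa9: gcattgtgggagAAGATGGCGgccgcc
Ndufs7: aaggccgaggccAAGATGGCGgcgctg
Ndufaf8: gaggcagggcccAAGATGGCGgcgccc
Ndufs6: agggtcaccggcAAGATGGCGgcggtg
Ndufs4: tttgcctacaggAAGATGGCGgcggtc
Of these 6 genes 3 (Ndufa9, Ndufc1 and Ndufs6) fell in both age comparisons and the others passed in neither. Of all 46 member rows tested 22 fell in both, a similar share.

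Whole promoters are given for the member with the smallest p of the falls in old GSH-high cells and for the core subunit that fell most, with any of the 4 motifs in capitals. Ndufs6 spans chr13:73328433-73328732 and Ndufs8 chr19:3912725-3913024, both on the minus strand.
Ndufs6: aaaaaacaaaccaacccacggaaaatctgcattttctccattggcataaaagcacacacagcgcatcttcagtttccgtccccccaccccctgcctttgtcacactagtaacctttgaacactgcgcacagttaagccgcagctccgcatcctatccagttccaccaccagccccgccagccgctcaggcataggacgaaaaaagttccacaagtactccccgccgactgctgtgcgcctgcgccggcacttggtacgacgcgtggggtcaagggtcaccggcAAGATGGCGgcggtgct
Ndufs8: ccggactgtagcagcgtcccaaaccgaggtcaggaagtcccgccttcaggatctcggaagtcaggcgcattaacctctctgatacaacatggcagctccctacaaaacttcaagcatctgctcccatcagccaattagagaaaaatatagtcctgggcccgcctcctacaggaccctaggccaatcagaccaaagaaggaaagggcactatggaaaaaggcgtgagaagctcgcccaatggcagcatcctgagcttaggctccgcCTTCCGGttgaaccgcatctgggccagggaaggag
In Ndufs6 the capitals are the YY1 match, 33 to 41 bases after the start, and in Ndufs8 the ETS motif on the other strand, 15 to 21 bases after it.

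**Figure D5:**
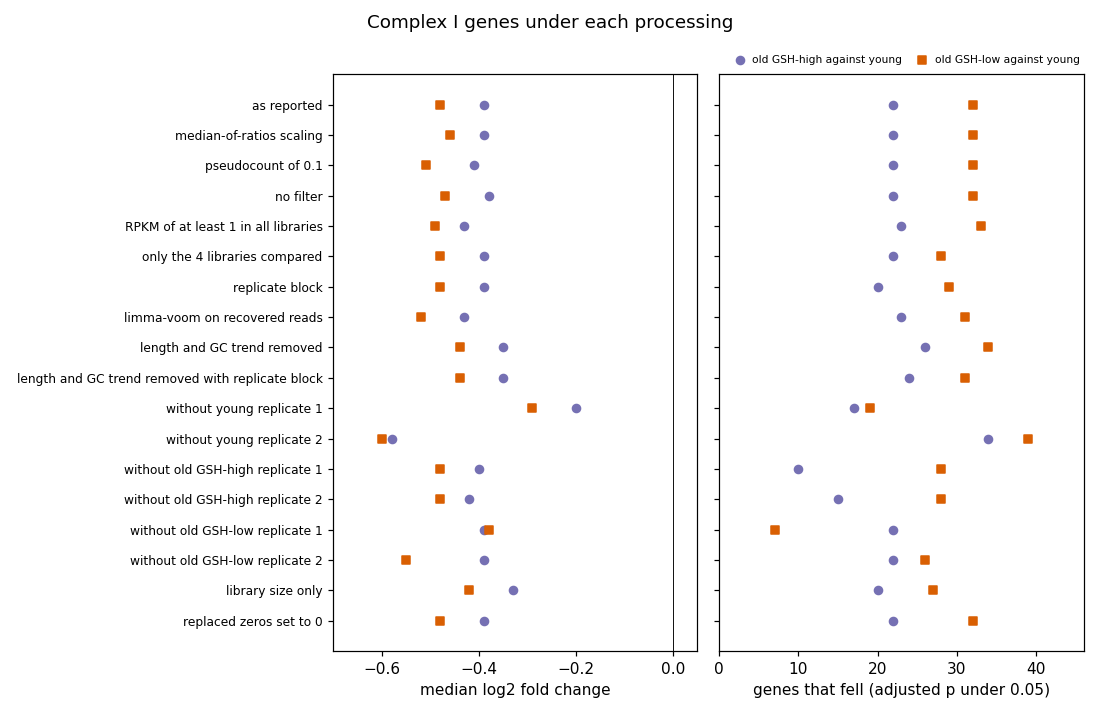
Median log2 fold change of the members (left) and number that fell (right) as reported and under each alternative, for old GSH-high (circles) and old GSH-low (squares) against young. All medians lie below 0, from -0.60 to -0.20, and the counts range from 7 to 39.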

How the data were processed

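The 6 libraries were oligo(dT)-primed and sequenced single-end at 150 bp, per the labels' protocols, which state 68 to 98 M reads. The submitters' processing notes name Trim Galore, STAR, featureCounts, Subread and edgeR, with builds mm10 and GRCm38 and no versions. The deposited table holds RPKM without a stated scaling. Whole reads were recovered from its steps (all values whole within 0.02 reads plus a relative 3e-07). They gave the depths, with a floor of 3 reads at 0.0436 to 0.0638 CPM, and were used for limma-voom.

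Genes that reached an RPKM of 1 in 2 libraries (10609; 1458 removed) were fitted as log2(RPKM + 1) with limma-trend (limma 3.58.1, R 4.3.3), 3 groups in 1 means model, 3 residual degrees of freedom, two-sided. P-values were Benjamini-Hochberg adjusted over all genes tested and called under 0.05. Ndufa11b, a processed pseudogene, did not pass the filter. The p-values rest on 2 libraries per group. Members, gene lists and tests were chosen with earlier results of these data known. Named were all members called in any comparison, the core subunits (1 member is counted in the totals but not reported here), the assembly factors and the extremes; of complexes II to V, Atp5g2 (smallest p in old GSH-low against young) and Sdha were named after their values were seen. Alternatives covered scaling, pseudocount, filters, samples fitted, replicate block, length and GC trend, limma-voom and leaving out each library. Recovery and fit were tested on simulated data: all simulated reads were recovered, but false calls were more frequent than the threshold of 0.05 states, and smaller changes were often missed. Python 3.11.15 was used with pandas 2.3.3, numpy 2.4.6, matplotlib 3.10.9 and scipy 1.17.1.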

Additional observations from a re-analysis of the deposited data

How the results depend on the processing

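The medians against young stayed below 0 in each alternative. Leaving out 1 library moved them from -0.58 to -0.20 in old GSH-high and from -0.60 to -0.29 in old GSH-low cells, and the falls from 10 to 34 and from 7 to 39; the cause was not tested. The other alternatives gave 20 to 26 and 27 to 34 falls. With RPKM of at least 1 in all libraries Ndufa4l2 was not tested, so that 0 members rose in each comparison. Between the old fractions, 0 rose with a pseudocount of 0.1 or limma-voom, and 0 to 1 without 1 library; 1 fell (Ndufaf4) with only the 4 libraries compared, and 0 to 1 without 1 library; the cause was not tested. Between the old fractions the median was -0.11 to 0.08 without 1 library. Of the members recomputed one by one in the age comparisons (those called, the core subunits, the assembly factors and Ndufb2), 3 changed sign. Ndufaf4 in old GSH-high (0.00 as reported; -0.11 to 0.11 without 1 library) had -0.00 with limma-voom, -0.06 with the length and GC trend removed (also with the replicate block), -0.11 without young replicate 2 and -0.04 without old GSH-high replicate 2. Ndufaf3 had 0.00 in old GSH-high without young replicate 1 (range without 1 library -0.22 to 0.00), and in old GSH-low (range -0.16 to 0.07) 0.07 without young replicate 1, 0.03 without old GSH-low replicate 1 and 0.01 with library size only. Ndufb2 in old GSH-low had -0.02 without young replicate 2 and -0.02 without old GSH-low replicate 1. With the replicate block 20 and 29 members fell, and 1 rose in each comparison. The numbers share only a label: replicate differences correlated at -0.14 (young and old GSH-high), -0.26 (young and old GSH-low) and 0.07 (old fractions) over 10609 genes. Scaling by library size only, chosen after seeing the data, gave 20 and 27 falls and medians of -0.33 and -0.42; over all genes it turned 1598 rises and 1453 falls in old GSH-high into 1924 and 1127, and 1919 and 1982 in old GSH-low into 2249 and 1492.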

Other observations

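The second row named Ndufa13 had 1.57 and 1.68 RPKM in young, 2.05 and 0.808 in old GSH-high and 1.42 and 1.82 in old GSH-low libraries, and passed in no comparison. Its gene model of 880 bases, derived from the values, was not matched to a gene of GENCODE M21. Ndufa11b, a pseudogene of Ndufa11 and the lowest member, had 0.281 to 0.597 RPKM.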
